A study of Rattus norvegicus with 14 samples.

Results

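Integrins are the membrane receptors by which cells hold the extracellular matrix, and each receptor pairs an alpha subunit, which largely sets the ligand, with a beta subunit, which binds the cytoskeleton through adaptor proteins. The set examined here was named by gene symbol and comprised 8 subunits: Itga1, Itga5, Itga7, Itga8, Itgav, Itgb1, Itgb3 and Itgb5. A row was found for 7 of the 8 among 17312 gene rows, and all 7 passed the filter on low values. Itgav was not analysed here.

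The Itgb1 product is the shared partner of the Itga1 product (a collagen receptor), the Itga5 product (the main fibronectin receptor), the Itga7 product (a laminin receptor) and the Itga8 product (a receptor for ligands with an arginine-glycine-aspartate motif, such as nephronectin and osteopontin). The Itgb3 and Itgb5 products pair with the Itgav product in receptors for vitronectin and related ligands. In vascular smooth muscle, Itga1, Itga7 and Itga8 are known from contractile cells, and Itga5 and Itgb3 from cells that migrate and remodel matrix after injury.

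RNA-seq of polyadenylated RNA was done on RASMC, smooth muscle cells of the rat aorta that were bought from a supplier, grown in culture and left without serum for 24 h before treatment. The treated cells received PDGF, a growth factor that drives smooth muscle cells to migrate and divide, at 925 ng/ml per the labels, for 2 h or 24 h. JQ1, given at 500 nM for 3 h before PDGF, is a small molecule inhibitor of BET bromodomain proteins, readers of acetylated histones. There were 14 libraries in 5 groups, and no group carried a genetic change. For each time, 2 h and 24 h, 3 libraries had JQ1 before PDGF (JQ1 plus PDGF) and 3 had PDGF without JQ1, and 2 libraries were of unstimulated cells (0 h). No unstimulated cells from the later times and no cells with JQ1 but without PDGF were analysed here, so PDGF and time in culture enter every comparison with 0 h together. The titles carry letters up to D without JQ1 and from E on with JQ1, and their meaning and JQ1 cannot be told apart. The labels do not state that replicates were separate cultures, so p-values reflect the spread among these libraries, and that spread may be technical.

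Levels are normalised FPKM, the authors' fragments divided by the length of the transcript and the size of the library after a normalisation whose method is not stated, so they compare genes per length. The normalisation moved high values by -0.37 to 0.44 on the log2 scale, depending on the library. It moved low values most in PDGF 2 h replicate 1 (0.79) and PDGF 24 h replicate 0 (0.79), which bears on Itgb3. ERCC spike-in RNA was added to the samples, per the labels. Over the 30 spike-ins at 1 or more in every library, the median deviation of a library from the spike-in means ran from -0.42 to 0.37 on the log2 scale in unnormalised FPKM and from -0.12 to 0.11 in normalised FPKM, so differences on the normalised scale are close to differences relative to the spike-ins. Sequencing depth is unknown, and between 9901 and 11503 genes were above 0 in a library. Differences are log2(normalised FPKM + 1) with the standard error from limma across 10133 genes, and a gene rose or fell where the Benjamini-Hochberg adjusted p was under 0.05. A second scale, unnormalised FPKM centred on the median gene, was run for every comparison because the median of all genes moved by up to -0.48 between groups on the normalised scale. In bulk RNA, fewer cells of a type and less RNA per cell cannot be told apart.

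The stretches of 250 bases before the transcription start are shown for the 3 alpha genes with a promoter in the RefSeq table (build GRCr8) that were lower with JQ1 at both times, and for their shared partner Itgb1. The table held 5 of the 7 members. Capitals mark matches, on either strand, to the AP-1 letters TGANTCA, the TEAD letters GGAATG or the GC box GGGCGG. The CArG box, the site of serum response factor, was searched as well, and no motif overlapped another. Sequences run 5′ to 3′ on the strand of the gene:
Itga1, chr2:48545284-48545533 (-): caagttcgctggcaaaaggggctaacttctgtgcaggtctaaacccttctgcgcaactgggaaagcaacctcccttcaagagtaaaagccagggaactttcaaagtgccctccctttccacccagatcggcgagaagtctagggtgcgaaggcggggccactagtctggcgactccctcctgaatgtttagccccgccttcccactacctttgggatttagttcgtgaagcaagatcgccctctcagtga
Itga5, chr7:136381306-136381555 (-): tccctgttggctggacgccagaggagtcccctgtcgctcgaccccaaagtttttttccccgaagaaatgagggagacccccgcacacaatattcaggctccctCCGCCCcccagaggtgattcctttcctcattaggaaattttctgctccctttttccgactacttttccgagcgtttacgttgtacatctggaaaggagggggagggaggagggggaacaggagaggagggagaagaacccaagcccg
Itga8, chr17:80410634-80410883 (-): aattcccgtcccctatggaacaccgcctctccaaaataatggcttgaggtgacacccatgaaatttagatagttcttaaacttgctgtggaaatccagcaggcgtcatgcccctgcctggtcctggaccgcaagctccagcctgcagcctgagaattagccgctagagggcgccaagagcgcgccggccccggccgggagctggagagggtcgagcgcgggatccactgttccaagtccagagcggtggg
Itgb1, chr19:73602027-73602276 (+): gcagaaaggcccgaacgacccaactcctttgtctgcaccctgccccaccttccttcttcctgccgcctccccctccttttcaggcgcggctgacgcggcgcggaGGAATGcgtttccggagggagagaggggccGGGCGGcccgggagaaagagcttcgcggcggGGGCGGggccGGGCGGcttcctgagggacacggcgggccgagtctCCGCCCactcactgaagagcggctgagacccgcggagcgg
Itgb1 held a TEAD site 146 bases before the start and 4 GC boxes at 116, 85, 75 and 40 bases before it. Itga5 held a single GC box 147 bases before its start. No letters of these 4 motifs were found in the windows of Itga1, Itga8 or Itgb5, which says nothing about the factors themselves. Over 33469 windows of the same length, the shares with a match were 6.34% for AP-1, 12.06% for TEAD, 30.47% for the GC box and 1.497% for the CArG box. The expression values were made on another build (rn6), and no binding data accompany them.

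At 2 h of PDGF, the fibronectin receptor subunit Itga5 rose more than any other integrin subunit tested. Itga5 had 347, 233 and 287 normalised FPKM with PDGF at 2 h, against 31.1 and 32.0 at 0 h. Every PDGF library was above both unstimulated libraries by a wide gap. The means were 289 ± 57.3 (SD, n = 3) with PDGF and 31.5 ± 0.62 (n = 2) at 0 h, a 9.17-fold difference. On the log2 scale Itga5 rose by 3.14 ± 0.15 (standard error, adjusted p = 2.74e-10).

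Itga7 had 109.7, 78.7 and 90.1 normalised FPKM with PDGF at 2 h, against 51.3 and 43.1 at 0 h. It rose by 0.95 ± 0.16 (adjusted p = 0.000345). Itgb1, the shared beta partner, had 971, 770.0 and 800.1 normalised FPKM with PDGF at 2 h, against 593 and 512 at 0 h. Itgb1 rose by 0.61 ± 0.14 (adjusted p = 0.00348). Without 0 h replicate 0 the Itgb1 difference was 0.51 with an adjusted p of 0.0632.

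The other 4 members did not pass at 2 h. The collagen receptor subunit Itga1 differed by 0.00 ± 0.22, with a 95% interval from -0.47 to 0.47. Itga8 averaged 42.9 ± 7.67 with PDGF at 2 h and 51.6 ± 2.79 at 0 h, a difference of -0.28 ± 0.16 (adjusted p = 0.21). Its ranges did not overlap, and the share of all genes without overlap is not given for this comparison. On the median-centred scale Itga8 fell by 0.33 (adjusted p = 0.0175). Itgb3 differed by 0.21 ± 0.42 and Itgb5 by 0.12 ± 0.14. Of the 7 members, 3 rose and 0 fell at 2 h, where 17.7% of all genes tested rose and 12.7% fell. The median difference was 0.21 over the members and 0.01 over all genes. At an unadjusted p under 0.05 in limma, 0 members fell as well.

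**Figure D1:**
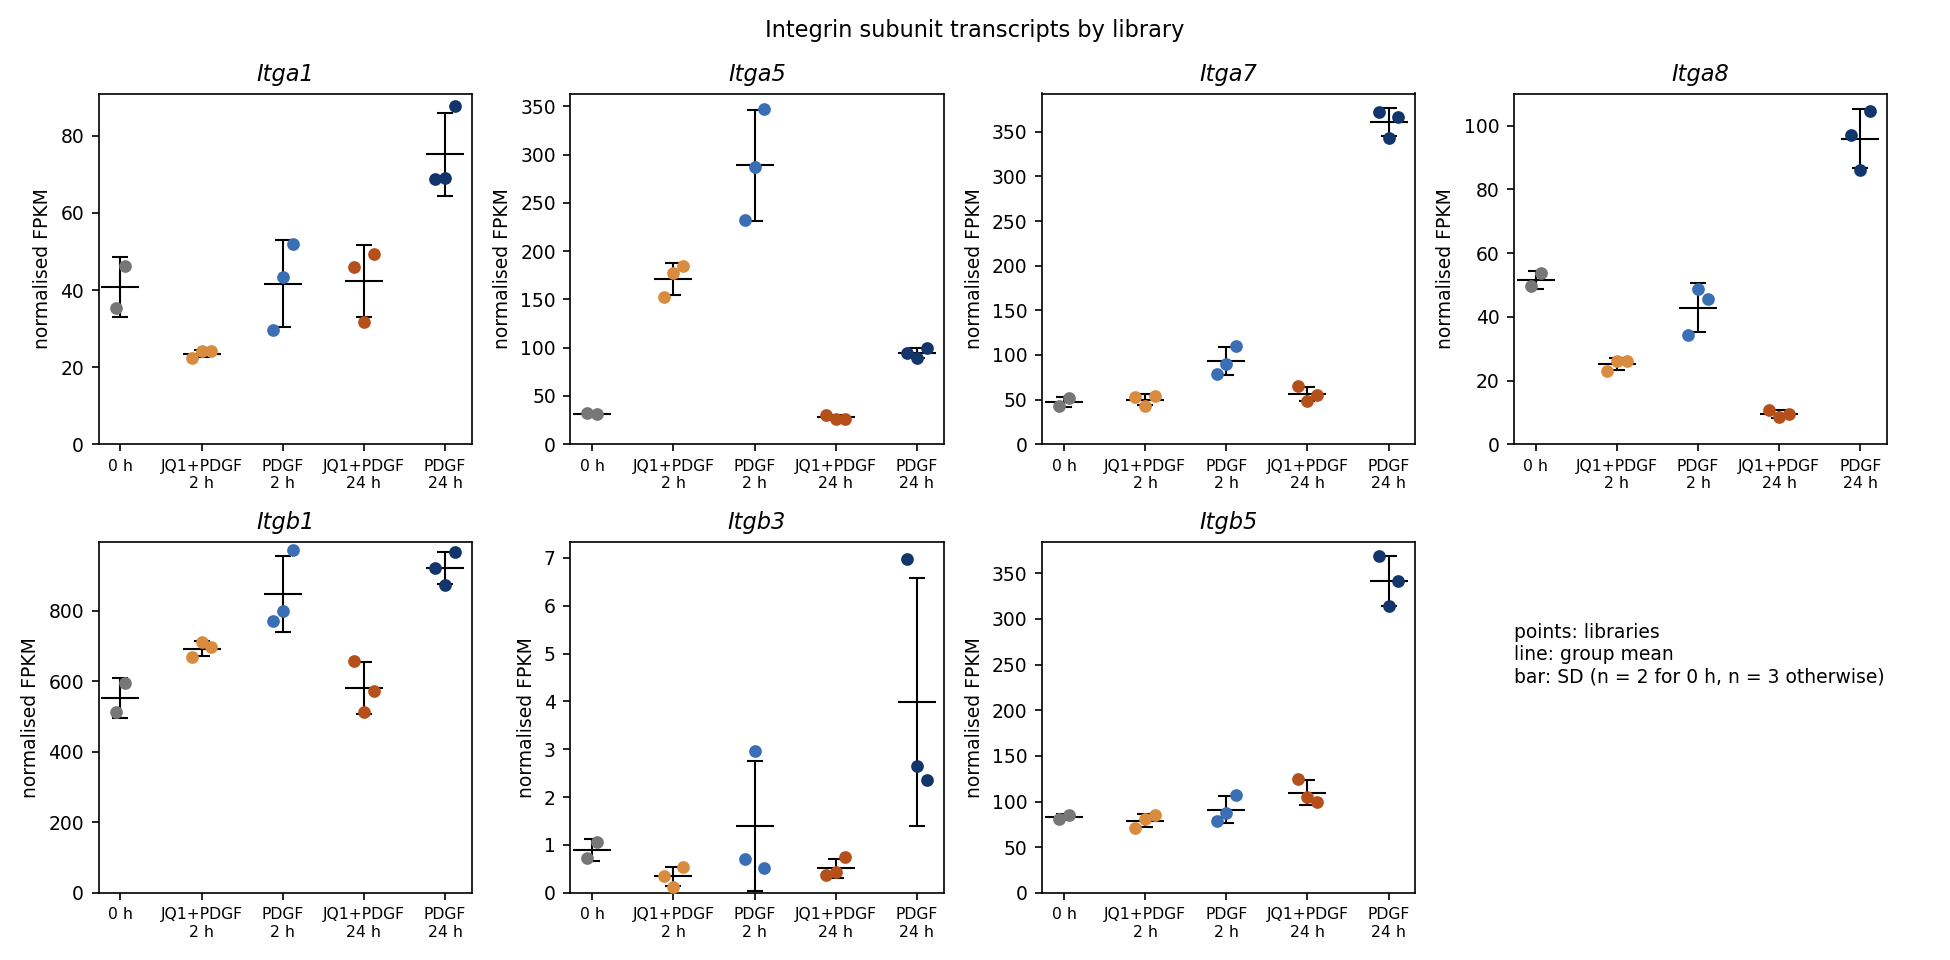
Normalised FPKM of each integrin subunit (y axes, each from 0) in the 14 libraries, by group (x axes). Points are libraries, lines are group means and bars are SD (n = 2 at 0 h, n = 3 elsewhere). By group mean, Itga5 is highest with PDGF at 2 h (233 to 347), whereas every other member is highest with PDGF at 24 h. The libraries of Itgb1 and Itgb3 overlap there with those of PDGF at 2 h.

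At 24 h with PDGF, all 7 subunits were above their level at 0 h. The largest differences were those of Itga7, the laminin receptor subunit, and Itgb5, a beta partner of the Itgav product. Itga7 had 343, 367 and 372 normalised FPKM with PDGF at 24 h, against 51.3 and 43.1 at 0 h. The lowest PDGF library was several times the highest unstimulated library. Itga7 averaged 360.5 ± 15.6 with PDGF and 47.2 ± 5.80 at 0 h, 7.64-fold higher, and rose by 2.91 ± 0.16 (adjusted p = 4.52e-09).

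Itgb5 had 314, 341 and 369 normalised FPKM with PDGF at 24 h, against 85.3 and 80.8 at 0 h. The 3 PDGF libraries lay close together and far above the unstimulated pair. Itgb5 rose by 2.03 ± 0.14 (adjusted p = 6.59e-08), a 4.12-fold difference of means. Itga5 had 89.1, 99.9 and 94.3 normalised FPKM with PDGF at 24 h, and rose by 1.55 ± 0.15 against 0 h (adjusted p = 1.46e-06).

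Itga8, the subunit that binds nephronectin and osteopontin, had 86.1, 104.6 and 97.1 normalised FPKM with PDGF at 24 h, against 53.6 and 49.7 at 0 h. It rose by 0.88 ± 0.16 (adjusted p = 0.000509), with every PDGF library higher. Itgb1 averaged 921 ± 46.4 with PDGF at 24 h and 553 ± 57.4 at 0 h, and rose by 0.74 ± 0.14 (adjusted p = 0.000595). Itga1 averaged 75.2 ± 10.8 with PDGF at 24 h and 40.8 ± 7.78 at 0 h, and rose by 0.87 ± 0.22 (adjusted p = 0.00546). Without 0 h replicate 0 the Itga1 difference was 0.68 with an adjusted p of 0.0884.

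Itgb3, the beta subunit of the classic vitronectin receptor, was the rarest member. It had 2.64, 2.35 and 6.99 normalised FPKM with PDGF at 24 h, against 1.06 and 0.727 at 0 h. All 3 PDGF libraries were higher, but replicate 0 carried much of the mean, and in unnormalised FPKM the 3 values were 1.83, 2.17 and 3.96. Itgb3 rose by 1.29 ± 0.42 (adjusted p = 0.0214). The difference was 0.89 (adjusted p = 0.0931) without PDGF 24 h replicate 0, 1.41 (adjusted p = 0.0594) without 0 h replicate 1 and 1.16 (adjusted p = 0.136) without 0 h replicate 0.

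Of all genes tested, 37.7% rose with PDGF at 24 h and 4.85% fell, and the 3 PDGF libraries were all above the unstimulated pair for 61.1%. The median difference was 1.29 over the 7 members and 0.41 over all genes. On the median-centred scale, where 14.8% of genes rose and 13.4% fell, 6 of 7 members rose. Itga1 then differed by 0.42 (adjusted p = 0.0942), Itga8 by 0.43 (adjusted p = 0.00577) and Itgb1 by 0.26 (adjusted p = 0.0026). Itga7 still rose by 2.46 and Itgb5 by 1.57 on that scale.

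Between 2 h and 24 h of PDGF the alpha subunits moved in opposite directions. Itga5 averaged 94.4 ± 5.38 normalised FPKM with PDGF at 24 h and 289 ± 57.3 with PDGF at 2 h, and fell by 1.59 ± 0.13 on the log2 scale (adjusted p = 2.3e-07). Its highest library at 24 h was below its lowest at 2 h. Itga7 rose by 1.96 ± 0.14 (adjusted p = 4.75e-08), Itga8 by 1.15 ± 0.14 (adjusted p = 1.01e-05) and Itga1 by 0.87 ± 0.20 (adjusted p = 0.00173). Itgb5 rose by 1.91 ± 0.13 (adjusted p = 2.13e-08). These 4 had every 24 h library above every 2 h library, as did 46.7% of all genes. In all, 5 members rose and 1 fell, where 44.5% of all genes rose and 11.8% fell (26.6% and 25.8% on the median-centred scale). The median difference was 1.08 over the members and 0.39 over all genes.

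Itgb1 did not pass between these times on the normalised scale (0.13 ± 0.12, adjusted p = 0.393) and fell on the median-centred scale (-0.26, adjusted p = 0.000733), so its direction there depends on the scale. The centred differences of Itga1 (0.47) and Itga8 (0.76) were smaller and still passed. Itgb3 averaged 3.99 ± 2.60 with PDGF at 24 h and 1.39 ± 1.36 with PDGF at 2 h, where replicate 1 stood at 2.96 and the others at 0.528 and 0.697. Its ranges overlapped, and the difference of 1.08 ± 0.37 (adjusted p = 0.0222) was 0.69 (adjusted p = 0.127) without PDGF 24 h replicate 0. It was 0.83 (adjusted p = 0.0988) without PDGF 2 h replicate 2 and 0.90 (adjusted p = 0.0856) without PDGF 2 h replicate 0.

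At 24 h, all 7 subunits were lower with JQ1 plus PDGF than with PDGF alone. Itga8 showed the largest difference, with 9.35, 8.48 and 10.9 normalised FPKM with JQ1 plus PDGF at 24 h, against 86.1, 104.6 and 97.1 with PDGF at 24 h. The highest library with JQ1 was far below the lowest without it. The means were 9.56 ± 1.20 with JQ1 plus PDGF and 96.0 ± 9.31 with PDGF alone, and Itga8 fell by 3.20 ± 0.14 (adjusted p = 9.48e-11).

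Itga7 had 55.6, 48.3 and 64.8 normalised FPKM with JQ1 plus PDGF at 24 h, against 343, 367 and 372 with PDGF at 24 h. Its libraries with JQ1 lay near the level at 0 h. It fell by 2.67 ± 0.14 (adjusted p = 7.5e-10), with means 6.41-fold lower. Itga5 had 26.6, 26.1 and 30.7 with JQ1 plus PDGF at 24 h, against 89.1, 99.9 and 94.3 with PDGF at 24 h, and fell by 1.73 ± 0.13 (adjusted p = 4.26e-08).

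Among the beta subunits, Itgb5 had 99.4, 105.0 and 125.0 normalised FPKM with JQ1 plus PDGF at 24 h, against 314, 341 and 369 with PDGF at 24 h. All JQ1 libraries were lower, and Itgb5 fell by 1.63 ± 0.13 (adjusted p = 5.34e-08). Itgb3 had 0.738, 0.431 and 0.369 with JQ1 plus PDGF at 24 h, against 2.64, 2.35 and 6.99 with PDGF at 24 h. It fell by 1.61 ± 0.37 (adjusted p = 0.00193), and with a pseudocount of 0.1 in place of 1 the difference was -2.61. Itgb1, the most abundant member, averaged 581 ± 73.2 with JQ1 plus PDGF at 24 h and 921 ± 46.4 with PDGF at 24 h, and fell by 0.67 ± 0.12 (adjusted p = 0.00028). Itga1 averaged 42.4 ± 9.32 with JQ1 plus PDGF at 24 h and 75.2 ± 10.8 with PDGF at 24 h, and fell by 0.83 ± 0.20 (adjusted p = 0.00245).

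In this comparison 48.5% of all genes tested fell and 4.61% rose, and the JQ1 libraries were all below the PDGF libraries for 57.4%, as for all 7 members. The median difference was -1.63 over the members and -0.48 over all genes. On the median-centred scale, where 25.8% of genes fell and 23.1% rose, 6 of 7 members fell: Itga8 by 2.70, Itga7 by 2.16, Itga5 by 1.22, Itgb3 by 1.19, Itgb5 by 1.12 and Itgb1 by 0.17. Itga1 differed by -0.31 there (adjusted p = 0.115).

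The sum of smooth muscle marker transcripts was high at 0 h and moved strongly with the groups. The list held 10 genes, among them Acta2, Tagln and Cnn1. Their summed unnormalised FPKM was 17828 to 18207 with JQ1 plus PDGF at 2 h and 11906 to 12612 with PDGF at 2 h. It was 428 to 500.1 with JQ1 plus PDGF at 24 h, 1404 to 1672 with PDGF at 24 h and 11106 to 11501 at 0 h. The highest library value was 7891 for Acta2 and 8390 for Tagln, against 5.63 for Myh11, 5.30 for Myocd and 1.09 for Des. The sum thus follows its most abundant genes. Of these 10 genes, 7 fell with PDGF at 24 h against 0 h, beside 4.85% of all genes. All 10 were lower with JQ1 plus PDGF than with PDGF at 24 h, beside 48.5% of all genes. With JQ1 at 2 h 1 rose and 3 fell, beside 7.24% and 34.0% of all genes, and the median difference was -0.30. These calls are on the normalised scale. On the centred scale 9 were tested. Of these, 8 fell with PDGF at 24 h and 9 with JQ1 at 24 h, beside 13.4% and 25.8% of all genes. With JQ1 at 2 h 3 rose and 3 fell there, beside 20.1% and 21.5%. Markers of other cell types were examined as well, in unnormalised FPKM. Endothelial Cdh5, leukocyte Ptprc and Itgb2, fibroblast Dpt, skeletal muscle Myog and glial Sox10 were listed at 0 in all 14 libraries. Cd151, a tetraspanin gene that most cells use, was listed at 0 in every library too, so a 0 in these tables need not mean that a transcript was absent. The 5 endothelial genes summed to 20.4 to 24.9 with JQ1 plus PDGF at 24 h, 92.4 to 105.0 with PDGF at 24 h, 21.2 to 22.8 with JQ1 plus PDGF at 2 h, 42.4 to 55.2 with PDGF at 2 h and 45.4 to 46.7 at 0 h, with Eng alone between 20.4 and 104 over the 14 libraries and Pecam1 at most 0.0408. The 7 leukocyte and platelet genes with a row (of 8, of which 4 are integrin genes outside the 7 members) summed to 9.53 to 17.1 with JQ1 plus PDGF at 24 h, 36.9 to 52.9 with PDGF at 24 h, 6.46 to 11.2 with JQ1 plus PDGF at 2 h, 17.7 to 23.3 with PDGF at 2 h and 13.8 to 17.6 at 0 h. In single libraries Cd14 reached 52.9 and Cd68 12.5. The 5 fibroblast genes with a row (of 6) summed to 6.10 to 8.44 with JQ1 plus PDGF at 24 h, against 95.7 to 115 with PDGF at 24 h, and to 90.2 to 129.9 over the other 3 groups. In single libraries Lum reached 119 and Pdgfra 19.0. The 6 skeletal muscle and glial genes summed to at most 0.52 in any library. The part of these markers in the integrin differences was not tested.

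At 2 h, all 4 alpha subunits were lower with JQ1 plus PDGF than with PDGF alone, and none of the 3 beta subunits passed the test (0 of 3 in limma, 1 at an unadjusted p under 0.05). Itga5 had 153, 177 and 184 normalised FPKM with JQ1 plus PDGF at 2 h, against 347, 233 and 287 with PDGF at 2 h. The groups did not overlap, yet every JQ1 library stayed several times above 0 h. Itga5 fell by 0.74 ± 0.13 (adjusted p = 0.000499). Itga7 had 52.6, 42.7 and 54.5 with JQ1 plus PDGF at 2 h, against 109.7, 78.7 and 90.1 with PDGF at 2 h, and fell by 0.88 ± 0.14 (adjusted p = 0.000211). Itga8 had 23.1, 26.3 and 26.2 with JQ1 plus PDGF at 2 h, against 45.7, 34.2 and 48.8 with PDGF at 2 h, and fell by 0.73 ± 0.14 (adjusted p = 0.000835). Itga1 had 22.4, 24.1 and 24.2 with JQ1 plus PDGF at 2 h, against 51.9, 29.6 and 43.3 with PDGF at 2 h, and fell by 0.76 ± 0.20 (adjusted p = 0.00632). The 4 alpha subunits and Itgb1 were lower in every JQ1 library than in any PDGF library, as were 38.1% of all genes.

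Itgb1 averaged 692 ± 21.8 with JQ1 plus PDGF at 2 h and 847 ± 108 with PDGF at 2 h, a difference of -0.28 ± 0.12 (adjusted p = 0.0763) that was 0.07 on the median-centred scale. Itgb5 differed by -0.19 ± 0.13 (adjusted p = 0.251) and by 0.15 on the centred scale, so neither gene kept its direction. Itgb3 differed by -0.71 ± 0.37 (adjusted p = 0.142), and was listed at 0 in unnormalised FPKM in JQ1 plus PDGF 2 h replicate 1. At 2 h 34.0% of all genes tested fell with JQ1 and 7.24% rose, with 21.5% and 20.1% on the median-centred scale. The median difference was -0.73 over the members and -0.29 over all genes. The 4 alpha subunits also fell on the centred scale, by 0.45 (Itga1), 0.40 (Itga5), 0.54 (Itga7) and 0.42 (Itga8). No test set alpha against beta subunits.

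**Figure D2:**
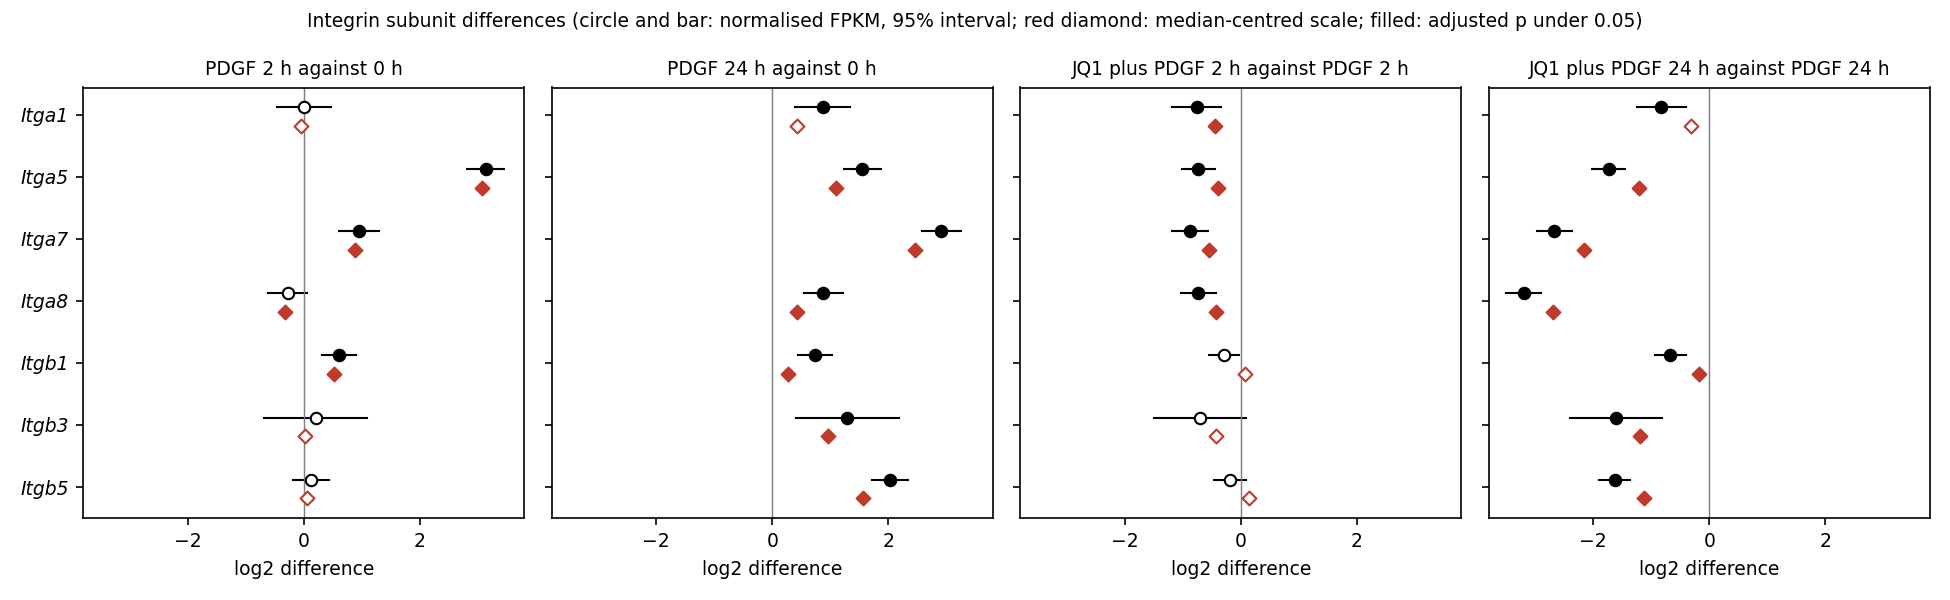
Log2 differences (x axes) of the 7 integrin subunits in 4 comparisons. Circles with 95% intervals are from normalised FPKM, diamonds from the median-centred scale, and filled symbols passed an adjusted p under 0.05. With JQ1 at 24 h all circles lie left of 0, between -0.67 for Itgb1 and -3.20 for Itga8.

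The JQ1 difference was larger at 24 h than at 2 h for 4 subunits, by a test of the difference itself. For Itga8 the JQ1 difference was -3.20 at 24 h and -0.73 at 2 h, a gap of -2.47 ± 0.20 (adjusted p = 6.21e-07). For Itga7 the gap was -1.79 ± 0.20 (adjusted p = 1.52e-05) and for Itgb5 it was -1.44 ± 0.18 (adjusted p = 4.48e-05). Itga5 had the smallest gap of the 4, -0.995 ± 0.19 (adjusted p = 0.00147). The same contrast is the difference between the change with time under JQ1 plus PDGF and under PDGF alone. Across all genes, 17.5% had a lower JQ1 difference at 24 h and 4.82% a higher one, with 16.4% and 13.5% on the centred scale.

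Itga1 showed no detectable gap, -0.07 ± 0.28 with a 95% interval from -0.66 to 0.53, with a JQ1 difference of -0.83 at 24 h and -0.76 at 2 h. The gap of Itgb1, -0.39 ± 0.17, missed the threshold (adjusted p = 0.122), but passed without PDGF 2 h replicate 2 (-0.49, adjusted p = 0.0388), without JQ1 plus PDGF 24 h replicate 0 (-0.48, adjusted p = 0.0480) and on the centred scale (-0.24, adjusted p = 0.019). The gap of Itgb3, -0.90 ± 0.53 (adjusted p = 0.239), passed without PDGF 2 h replicate 1 (-1.34, adjusted p = 0.0362).

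**Figure D3:**
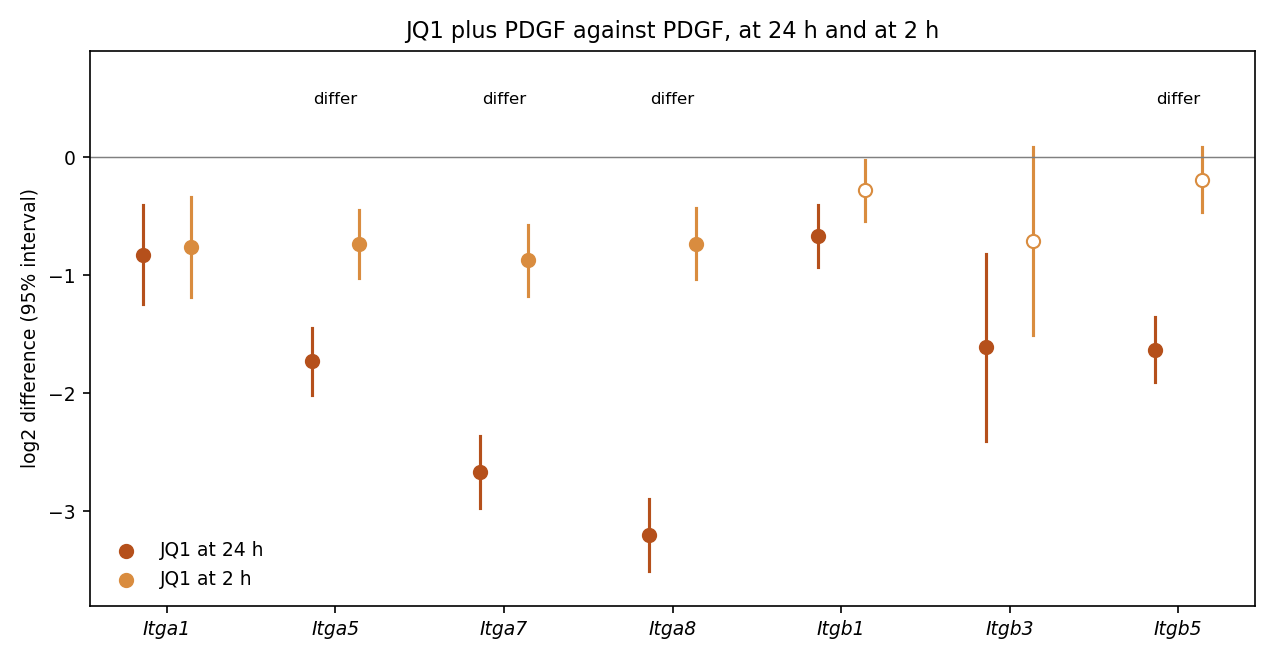
Log2 difference of JQ1 plus PDGF against PDGF (y axis) for each integrin subunit at 24 h (left of each pair) and 2 h (right), with 95% intervals. Filled points passed the test, and the word differ marks the 4 genes whose JQ1 difference was not the same at the 2 times, Itga5, Itga7, Itga8 and Itgb5.

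Set against 0 h, the cells given JQ1 before PDGF had a high Itga5 level at 2 h and a low Itga8 level at both times. At 2 h with JQ1 plus PDGF, Itga5 averaged 171 ± 16.5, against 31.5 ± 0.62 at 0 h, and rose by 2.40 ± 0.15 (adjusted p = 6.51e-09). Itga8 averaged 25.2 ± 1.83 with JQ1 plus PDGF at 2 h and 51.6 ± 2.79 at 0 h, and fell by 1.01 ± 0.16 (adjusted p = 0.000117). Itga1 fell by 0.76 ± 0.22 (adjusted p = 0.0109), and without 0 h replicate 1 the difference was -0.57 (adjusted p = 0.130). In this comparison 1 member rose and 2 fell, where 13.2% of all genes rose and 33.7% fell (25.6% and 27.1% on the centred scale). The centred scale added Itga7 (0.35, adjusted p = 0.0138) and Itgb1 (0.59, adjusted p = 1.57e-06) to those that rose. These comparisons share the 0 h libraries with those of PDGF alone.

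At 24 h with JQ1 plus PDGF, Itga8 averaged 9.56 ± 1.20, against 51.6 ± 2.79 at 0 h, 5.40-fold lower, and fell by 2.32 ± 0.16 (adjusted p = 1.19e-08). Itga8 was thus above its 0 h level with PDGF alone and below it with JQ1 plus PDGF. Itga7 differed from 0 h by 0.24 ± 0.16 (adjusted p = 0.244), Itga5 by -0.18 ± 0.15 (adjusted p = 0.366) and Itga1 by 0.04 ± 0.22. Their 95% intervals ran from -0.10 to 0.58 for Itga7 and from -0.50 to 0.14 for Itga5. On the centred scale Itga7 rose by 0.30 (adjusted p = 0.0276) and Itgb5 by 0.45 (adjusted p = 0.0005). Itgb5 rose by 0.39 ± 0.14 (adjusted p = 0.0394), a call that was lost without either 0 h library or without JQ1 plus PDGF 24 h replicate 1 or 0, where the difference lay between 0.30 and 0.43. Thus 1 member rose and 1 fell, where 17.6% of all genes rose and 23.4% fell (25.1% and 24.8% on the centred scale).

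Over time under JQ1, Itga8 averaged 9.56 ± 1.20 at 24 h and 25.2 ± 1.83 at 2 h and fell by 1.31 ± 0.14 (adjusted p = 2.52e-06), whereas under PDGF alone it rose. Itga5 fell by 2.58 ± 0.13 (adjusted p = 5.24e-10). Itga1 rose by 0.80 ± 0.20 (adjusted p = 0.0037) and Itgb5 by 0.46 ± 0.13 (adjusted p = 0.00784). Itga7 did not pass (0.17 ± 0.14, adjusted p = 0.367). Itgb1 missed the threshold (-0.26 ± 0.12, adjusted p = 0.0949) and passed without JQ1 plus PDGF 24 h replicate 0 (-0.35, adjusted p = 0.0329) and on the centred scale (-0.50, adjusted p = 2.19e-06). Among all genes 29.0% rose and 17.4% fell (25.3% and 27.4% on the centred scale), and 2 members rose and 2 fell.

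The order of the group levels differed from subunit to subunit. Itga5 was highest with PDGF at 2 h, next with JQ1 plus PDGF at 2 h, then with PDGF at 24 h. It was lower at 0 h and lowest with JQ1 plus PDGF at 24 h, and no neighbouring groups overlapped. The last step of Itga5 did not pass in limma (-0.18, adjusted p = 0.366). Itga8 was highest with PDGF at 24 h, next at 0 h, then with PDGF at 2 h. It was lower with JQ1 plus PDGF at 2 h and lowest with JQ1 plus PDGF at 24 h, again without overlap between neighbours. For Itga8 the step between 0 h and PDGF at 2 h did not pass in limma (-0.28, adjusted p = 0.21). The share of all genes with such separate groups is not given. For Itga7, PDGF at 24 h and then PDGF at 2 h stood above the other 3 groups, which overlapped with their neighbours. For Itgb5, PDGF at 24 h stood alone above the other 4 groups, each of which overlapped with its neighbours. Itga1 was highest with PDGF at 24 h and lowest with JQ1 plus PDGF at 2 h, with the other 3 groups in between, each overlapping with its neighbour. Itgb1 overlapped between the PDGF times and between JQ1 plus PDGF at 24 h and 0 h, with JQ1 plus PDGF at 2 h between those pairs. All neighbouring groups of Itgb3 overlapped.

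The make-up of the alpha subunit pool changed with time. Shares are of the summed unnormalised FPKM of the 12 alpha subunits with a row, per library. They leave out Itgav, and also Itga2, Itga2b, Itga3, Itga9 and Itgax, which had no row, so shares of the full pool are unknown. Among these 12 no subunit dominated at 0 h. Itga8 stood at 27.1% ± 0.92 (SD, n = 2), Itga7 at 24.8% ± 0.62, Itga1 at 21.3% ± 2.23 and Itga5 at 16.6% ± 1.89. With PDGF at 2 h Itga5 made up 59.0% ± 0.14 (n = 3) and Itga7 19.1% ± 1.01. With PDGF at 24 h Itga7 made up 56.0% ± 2.01, Itga8 14.8% ± 0.56 and Itga5 14.6% ± 0.13.

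At 2 h the share of Itga5 overlapped between the groups, at 57.8% to 61.4% with JQ1 plus PDGF and 58.9% to 59.2% with PDGF. Itga6, outside the 7 members, made up 3.99% to 4.96% with JQ1 plus PDGF at 2 h and 2.59% to 2.82% with PDGF at 2 h, without overlap. At 24 h the shares of Itga7, Itga1, Itga8, Itga5 and Itga6 did not overlap between the groups. Itga5 made up 17.7% to 21.6% with JQ1 plus PDGF at 24 h and 14.5% to 14.7% with PDGF at 24 h. For Itga6 the shares were 4.15% to 4.85% with JQ1 plus PDGF and 1.74% to 2.37% with PDGF. Itga7 made up 37.0% to 40.1% with JQ1 plus PDGF and 53.7% to 57.6% with PDGF. Itga1, the collagen receptor subunit, made up 26.3% to 33.1% with JQ1 plus PDGF and 10.5% to 12.9% with PDGF. Itga8 made up 6.28% to 6.94% with JQ1 plus PDGF and 14.2% to 15.3% with PDGF. The larger shares of Itga5, Itga1 and Itga6 with JQ1 at 24 h went with lower normalised levels. Itga5 differed by -1.73 and Itga1 by -0.83, and Itga6 averaged 6.60 with JQ1 plus PDGF and 13.2 with PDGF. No test was run on the shares.

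Among the 8 beta subunits with a row, Itgb1 dominated everywhere. Its share was 86.8% ± 0.14 at 0 h, 90.2% ± 0.63 with PDGF at 2 h and 72.5% ± 1.44 with PDGF at 24 h. Itgb5 held nearly all the rest, with 15.1% to 16.9% with JQ1 plus PDGF at 24 h and 25.9% to 28.4% with PDGF at 24 h. At 2 h Itgb5 held 9.51% to 10.8% with JQ1 plus PDGF and 9.23% to 10.5% with PDGF, which overlapped. The summed normalised FPKM of the 4 alpha members was 136 ± 19.3 with JQ1 plus PDGF at 24 h and 626 ± 36.5 with PDGF at 24 h. It was 466 ± 89.8 with PDGF at 2 h and 171 ± 15.8 at 0 h. The 3 beta members summed to 691 ± 84.4 with JQ1 plus PDGF at 24 h and 1266 ± 65.7 with PDGF at 24 h, and to 637 ± 60.8 at 0 h.

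**Figure D4:**
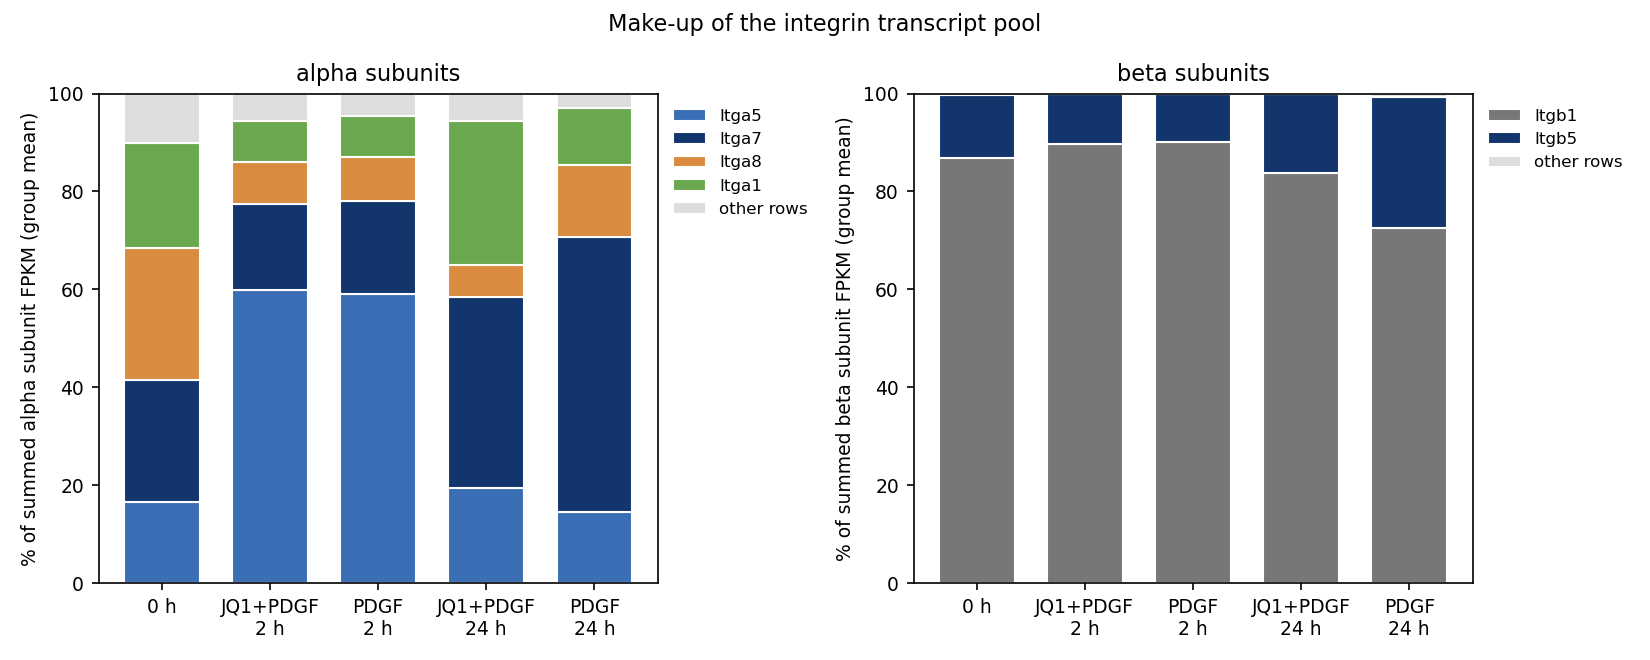
Share of the summed unnormalised FPKM (y axes, percent, group means) held by each alpha subunit (left) and beta subunit (right) in the 5 groups (x axes). Only subunits with a row enter the sums. Itga5 fills about the same share with JQ1 plus PDGF at 2 h (59.9%) as with PDGF at 2 h (59.0%), and Itga7 a smaller share with JQ1 plus PDGF at 24 h (39.0%) than with PDGF at 24 h (56.0%).

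Likeness of pattern was described by Pearson correlation over the 14 libraries, which share groups and a normalisation, among 9795 genes with a symbol. Itga7 and Itgb5 were the most alike pair of members (r = 0.939), and Itga5 ranged from r = -0.17 with Itga1 and -0.06 with Itgb5 to 0.706 with Itgb1. The genes most like Itga5 were Cyp1b1 (0.992), Notch1 (0.986) and Loxl4 (0.985). Cyp1b1, a cytochrome P450, averaged 30.6 normalised FPKM at 0 h, 331 with PDGF at 2 h and 120.5 with PDGF at 24 h. For Itga8 they were Loxl3 (0.991), Idh2 (0.988) and Man2b2 (0.988), and for Itga7 Rnf10 (0.984), Hnrnpm (0.980) and Pcdhgc3 (0.975). For Itgb5 they were Cdkn2a (0.992), Col18a1 (0.984) and Nucb1 (0.983). Cdkn2a, a cell cycle inhibitor gene, averaged 17.8 normalised FPKM with JQ1 plus PDGF at 24 h and 74.4 with PDGF at 24 h. For Itgb1 they were Hk1 (0.972), Plod3 (0.959) and Cspg4 (0.952), and for Itga1 Lrp1 (0.977), Myof (0.965) and Ppfibp1 (0.961). For Itgb3 they were Wdr31 (0.965), Mdfi (0.959) and Cap2 (0.954), all of which averaged under 5 normalised FPKM in every group.

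Of 18 other integrin subunits listed, 13 had a row and 5 passed the filter on low values (Itga4, Itga6, Itga11, Itgae and Itgb8), which says nothing of the rest. With PDGF at 24 h against 0 h Itgb8, another beta partner of the Itgav product, rose by 1.32 ± 0.32 and the collagen receptor subunit Itga11 fell by 0.88 ± 0.29. Thus 1 of the 5 rose and 1 fell, beside 37.7% and 4.85% of all genes. The centred scale gave the same counts, beside 14.8% and 13.4%. With PDGF at 2 h 0 of the 5 passed in limma, beside 17.7% of all genes that rose and 12.7% that fell. At an unadjusted p under 0.05 in limma 1 was lower. On the centred scale 1 of the 5 fell at 2 h, beside 19.4% of all genes. With JQ1 at 24 h 4 of the 5 fell: Itgb8 by 1.86 ± 0.29, Itgae by 1.18 ± 0.31, Itga11 by 1.10 ± 0.26 and Itga6, a laminin receptor subunit, by 0.91 ± 0.21. With JQ1 at 2 h 3 of the 5 fell. Of all genes, 48.5% fell with JQ1 at 24 h and 34.0% at 2 h. On the centred scale 3 of the 5 fell with JQ1 at 24 h and 1 at 2 h, beside 25.8% and 21.5% of all genes. Itgb8 averaged 0.54 normalised FPKM with JQ1 plus PDGF at 24 h and 4.63 with PDGF at 24 h.

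The adaptors and kinases that couple beta subunits to actin were followed through a list of 26 genes, of which 24 were tested. With PDGF at 2 h 8 rose and 3 fell, beside 17.7% and 12.7% of all genes. Among them Bcar1 rose by 1.34 ± 0.15, Fermt2 (kindlin-2, which activates integrins through the beta tail) by 1.27 ± 0.15 and Actn1 (an actin cross-linker) by 0.88 ± 0.16, while the kinase gene Ptk2b fell by 1.40 ± 0.16. With PDGF at 24 h 9 rose and 5 fell against 0 h, beside 37.7% and 4.85% of all genes. On the centred scale 3 rose and 12 fell, beside 14.8% and 13.4% of all genes, so the balance of the list depends on the scale. Parvb rose by 2.41 ± 0.33, and Lims2, whose product joins Parvb's in a complex with integrin-linked kinase, fell by 2.86 ± 0.23.

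With JQ1 at 24 h 20 of the 24 adaptor genes fell, beside 48.5% of all genes, with a median difference of -0.76 beside -0.48 over all genes. On the centred scale 12 fell and 2 rose, beside 25.8% and 23.1% of all genes. Lims2 fell by 2.72 ± 0.20, Tgfb1i1 (a paxillin relative) by 2.41 ± 0.15, Cav1 (the caveolar coat protein) by 2.13 ± 0.11 and Src (a kinase at adhesions) by 2.06 ± 0.18. With JQ1 at 2 h 12 fell and 1 rose (34.0% and 7.24% of all genes), with 8 and 9 on the centred scale (21.5% and 20.1% of all genes). Src then averaged 3.74 normalised FPKM with JQ1 plus PDGF and 32.3 with PDGF, and fell by 2.83 ± 0.18. Itgb1bp1, whose product binds the tail of the Itgb1 product, fell by 1.21 ± 0.14, a larger difference than that of Itgb1 itself (-0.28), though the 2 were not tested against each other.

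Of 20 matrix ligand genes listed, 16 were tested. With PDGF at 2 h 7 rose and 1 fell, beside 17.7% and 12.7% of all genes. Tnc, encoding tenascin-C, rose by 4.31 ± 0.19, Thbs1 by 3.46 ± 0.22, Cyr61 by 1.86 ± 0.15 and Tgfb1 by 1.56 ± 0.15. With PDGF at 24 h 9 rose and 3 fell against 0 h, beside 37.7% and 4.85% of all genes (7 and 5 on the centred scale, beside 14.8% and 13.4%). Spp1, encoding osteopontin, a ligand of the Itgav and Itga8 products, averaged 41311 normalised FPKM with PDGF at 24 h and 6187 at 0 h, and rose by 2.75 ± 0.20. Lama4, a laminin chain gene, rose by 1.95 ± 0.26.

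With JQ1 at 24 h 13 of the 16 ligand genes fell and 1 rose, beside 48.5% and 4.61% of all genes (13 and 3 on the centred scale, beside 25.8% and 23.1%). Col3a1, a collagen gene, averaged 36.7 normalised FPKM with JQ1 plus PDGF and 1221 with PDGF, and fell by 5.01 ± 0.13. Tgfb3 fell by 2.64 ± 0.12, Tnc by 2.52 ± 0.17 and Lama4 by 2.37 ± 0.23. The gene that rose was Fn1, encoding the fibronectin bound by the Itga5 product, by 0.65 ± 0.20 (adjusted p = 0.014), and it is named after its value was seen. At 2 h with JQ1 6 ligand genes fell (8 at an unadjusted p under 0.05), and 0 rose by either measure in limma. Of all genes 34.0% fell and 7.24% rose. On the centred scale 4 ligand genes fell and 6 rose, beside 21.5% and 20.1% of all genes. Tnc fell by 2.21 ± 0.17 and Thbs1 by 0.79 ± 0.19. The difference between the JQ1 effects at 24 h and 2 h was lower for 9 of the 16 ligand genes, for 7 of the 24 adaptor genes and for 2 of the 5 other subunits, beside 17.5% of all genes. Of the adaptor genes 9 and of the ligand genes 10 were lower on the centred scale, beside 16.4% of all genes.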

How the data were processed

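The authors deposited unnormalised FPKM and normalised FPKM for 17312 genes and 92 spike-ins in 14 libraries. HISAT and Cufflinks 2.0.0 were used with build rn6, per the submitters' processing notes. The annotation and the normalisation method are not given in the sources used here, and strand-specific counting is not stated. Columns were matched to groups by name (0 columns without a group). They end in digits and the titles in letters, so a library is called by its group and digit.

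The 10133 genes that reached a normalised FPKM of 1 in 2 or more libraries entered the test. It was run in R 4.3.3 with limma 3.58.1 on log2(normalised FPKM + 1), a scale that understates the change of low genes, with a mean per group over all 5 groups, 9 residual degrees of freedom, a mean trend and Benjamini-Hochberg adjustment. The test is two-sided. The code was tested on simulated data. No count model applies to FPKM. The depth is unknown, and a value listed at 0 may be a failed estimate.

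Alternatives were the median-centred unnormalised FPKM (9980 genes tested), a pseudocount of 0.1, no filter, a minimum of 5, only the groups compared, and leaving out each library or both libraries whose low values moved most. Members and lists were chosen with earlier results of these data known. Every member is described, and other lists are named by up to 4 genes with the largest differences that passed, per comparison. Not all of these are printed. Promoters came from a RefSeq table on GRCr8.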

Additional observations from a re-analysis of the deposited data

Results flagged for a closer look

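The JQ1 difference at 24 h minus that at 2 h was past the threshold in limma for 4 integrin subunits. It was -2.47 for Itga8, -1.79 for Itga7, -1.44 for Itgb5 and -0.995 for Itga5. The JQ1 difference of Itga8 was -3.20 at 24 h and -0.73 at 2 h, on the log2 scale, and the centred scale gave a gap of -2.28. The centred gaps were -1.61 for Itga7, -1.27 for Itgb5 and -0.82 for Itga5, and all 4 were past the threshold there too.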

How the results depend on the processing

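Of the differences of single members under the alternatives, 704 kept their side of the threshold, 19 lost it, 12 gained it and 1 reversed. On the median-centred scale Itgb1 fell by 0.26 between PDGF at 24 h and at 2 h, where it differed by 0.13 on the normalised scale. The centred counts of members were 1 lower for PDGF at 2 h against 0 h (0 on the normalised scale) and 2 lower for PDGF at 24 h against 2 h (1). They were 3 higher for JQ1 plus PDGF at 2 h against 0 h (1) and 2 higher for JQ1 plus PDGF at 24 h against 0 h (1). In the same order, the shares of all genes were 19.4%, 25.8%, 25.6% and 25.1% on the centred scale. On the normalised scale they were 12.7%, 11.8%, 13.2% and 17.6%. With only the groups compared, 2 members were higher for JQ1 plus PDGF at 2 h against 0 h. With no filter, 0 were higher for JQ1 plus PDGF at 24 h against 0 h. Shares of all genes are not given with only the groups compared, with no filter or with a library left out. Leaving out 1 library at a time gave 1 to 2 lower members for JQ1 plus PDGF at 2 h against 0 h and 0 to 1 higher for JQ1 plus PDGF at 24 h against 0 h. The cause of these moves was not tested. With no filter Itgb3 also missed the threshold for PDGF at 24 h against 0 h (adjusted p = 0.0564), and the minimum of 5 left it untested. No paired analysis was possible because the columns carry digits and the titles letters. Unknown depth limits Itgb3 most.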
